A study of Mus musculus with 6 samples.

Results

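The genes described here are the expressed neighbours of Il1a on mouse chromosome 2, in a window of 15 Mb on each side of the gene (GRCm38). Members were chosen by position and level: a GENCODE M21 gene that overlaps the window and reaches at least 1 CPM (counts scaled to the library total) in 3 of the 6 libraries. Of 540 annotated genes in the window, 136 reached that level, and 125 remained without the 11 genes that the rule leaves out, Il1a and Il1b among them. They run from Gm29340 (from 116972575) to Snx5 (to 144270906). They are 125 of 54838 genes in the count tables, and all of them were among the 11924 genes tested. The window was drawn after it was known that most genes that differed between the genotypes lay there, so the differences below are a description of the members and not a test of them.

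RNA was sequenced from neutrophils of infected mouse corneas in 3 wild-type (WT) and 3 IL1a -/- libraries. All 6 come from eyes that received PAO1, a strain of the bacterium Pseudomonas aeruginosa, and were sampled at 24 h, so the groups differ in genotype alone as far as the labels go. The IL1a -/- mice lack Il1a, the gene of the cytokine IL-1 alpha. How the allele was made, the strain background of either group, the age of the mice and whether animals were pooled are not stated in the material used here. The labels number the biological replicates without naming animals, and the spread between libraries may in part be technical.

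As background, a targeted allele made in embryonic stem cells of one mouse strain and then crossed into another keeps a stretch of donor DNA around the target, since linked sequence is separated from it only by recombination. Genes in such a stretch carry the donor strain's variants, copy numbers and regulatory sequence, so they can differ in expression between knockout and wild-type mice whatever the targeted gene does. A further local source of difference is the targeted change itself, which can alter transcripts that start, end or overlap near it. Gene counts hold no sequence variants, and whether a donor segment is present in these mice was not tested. Strain origin, the local change to the locus and loss of IL-1 alpha cannot be told apart in this design.

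The libraries held 22855676 to 33626008 gene counts. Il1a was at 5116, 6195 and 8776 CPM in the WT libraries and at 2.89, 5.37 and 5.15 CPM in the IL1a -/- libraries, so each library carried the Il1a level of its label. On the first principal component IL1a -/- replicate 2 had a score of 44.9, while the remaining 5 libraries lay between -24.4 and 7.7. Summed neutrophil markers were high in every library, at 35911 to 41496 CPM in WT and 34430 to 38188 CPM in the knockout. Monocyte and macrophage markers summed to 543 to 594 CPM in WT and 672 to 676 CPM in the knockout, with 6 of 12 above and 1 below in all knockout libraries and 0 called. Corneal epithelial markers varied within both groups, at 73.6 to 209 CPM and 84.7 to 160.0 CPM. Stromal markers were at 11.6 to 33.3 CPM over all libraries, and T and NK cell markers did not exceed 1.55 CPM, with Cd3e, Nkg7 and Ncr1 at 0. The part of these other cells in the results below was not tested, and in bulk RNA fewer cells of a type and less RNA per cell cannot be told apart.

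The members were mostly ordinary protein-coding genes, 109 of 125, beside 6 lincRNAs and 10 entries of other kinds. Their median level was 11.0 CPM, against 4.26 CPM over all tested genes, and 99 reached 1 CPM in every library. Between the genotypes, 8 members (6.40%) were called, meaning a Benjamini-Hochberg adjusted p under 0.05 over all tested genes in edgeR's quasi-likelihood test. Over all tested genes the called share was 0.101%, and by direction the members' 6 higher and 2 lower calls stand beside 0.0755% and 0.0252%. These shares follow from how the window was chosen, and nothing is read from them. The rest of chromosome 2 held 0 calls among 752 tested genes, and the other chromosomes held 2 among 10993.

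Separation of the genotypes was more frequent than a call. In 39 members (31.2%) the 3 knockout libraries all lay on one side of the 3 WT libraries, 22 above and 17 below. Such a separation occurred in 11.6% of all tested genes, 6.12% above and 5.48% below. An unadjusted p under 0.05 was found in 34 members (27.2%), against 5.99% of all tested genes. A change of more than 2-fold was seen in 24 members (19.2%), against 6.26% of all tested genes. Directions were mixed, with 70 members higher and 55 lower on average. The median absolute log2 fold change was 0.29 for the members, 0.22 for all tested genes and 0.22 for the rest of chromosome 2. The 90th percentile was 1.36 for the members against 0.80 for all tested genes. The members also had the higher median level (11.0 against 4.26 CPM), and these sets were not matched for level. Without IL1a -/- replicate 2, separation was found in 56 members (44.8%) and 20.3% of all tested genes. Fewer libraries overlap less often, and each fit that left out a library gave at least 47 separated members. The part of replicate 2 in the count of 56 was not tested.

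**Figure D1:**
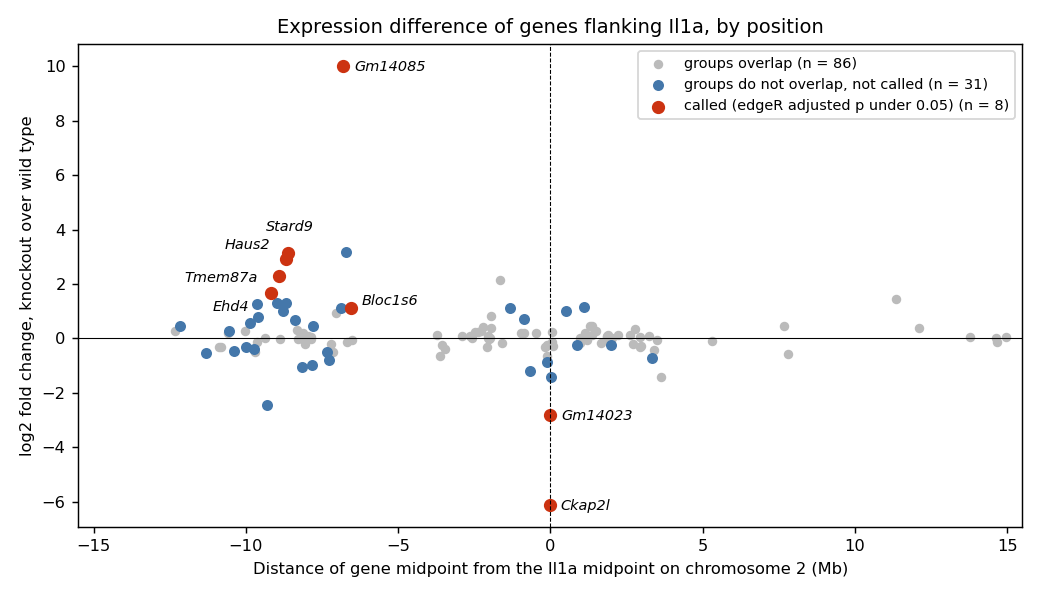
Each point is 1 of the 125 members, placed by the distance of its midpoint from that of Il1a (Mb, horizontal axis) and by its log2 fold change, knockout over WT (vertical axis). Grey points are the 86 members whose genotypes overlap, blue points the 31 that separate without a call and red points the 8 called, which sit either 6 to 10 Mb before Il1a or beside it.

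Along the chromosome the differences were not spread evenly, nor did they fade steadily with distance from Il1a. For comparison, 11.6% of all tested genes separated and 0.101% were called, and on the rest of chromosome 2 the share separated was 11.4%. The stretch from 10 to 6 Mb before the gene, from Ino80 to Sqor, held 39 members, of which 22 (56.4%) separated and 6 were called. Its median absolute log2 fold change was 0.57. Nearer to Il1a, the step from 4 to 2 Mb before it held 15 members of which 0 separated, with a median of 0.22. Its largest difference was that of Eid1, a transcriptional inhibitor gene, at 3.76 ± 1.29 CPM in WT and, in the knockout, 2.41 ± 1.32 CPM (SD, n = 3 each). The last 2 Mb before Il1a held 18 members with 6 separated (33.3%), and the 2 Mb after it held 21 with 5 (23.8%). Beyond that, from 2 to 16 Mb after Il1a, 1 of 22 members (4.55%) separated. It was AU019990, a lincRNA, at 2.84, 2.90 and 2.38 CPM in WT and 1.70, 1.63 and 1.62 CPM in the knockout. No member lay between 6 and 4 Mb before Il1a. The outermost stretch on the left, from 14 to 10 Mb before Il1a, held 10 members, from Gm29340 to Vps18. Of these, 5 separated, 2 above WT and 3 below, and 0 were called, with a median of 0.31. Separation was thus not confined to the 10 to 6 Mb stretch on that side. Outside the 10 to 6 Mb stretch as a whole, these 5 included, 17 of 86 members (19.8%) separated, with a median of 0.26. The boundaries of these steps were chosen with the values known.

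**Figure D2:**
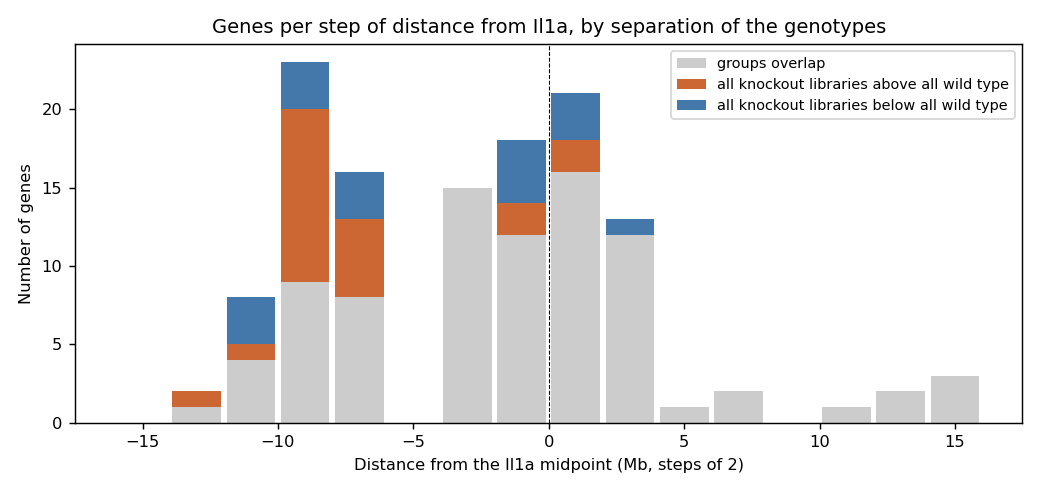
Number of members (vertical axis) in steps of 2 Mb from the Il1a midpoint (horizontal axis), split by whether the knockout libraries lie all above WT (orange), all below (blue) or overlap with it (grey). The step from 10 to 8 Mb before Il1a holds 11 members above and 3 below among 23, and the step from 4 to 2 Mb before holds 15 members that all overlap.

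Genes of membrane trafficking gave 3 of the 6 higher calls. Of 17 members in that group, 3 were called higher and 0 lower, 4 lay above WT in all knockout libraries and 1 below, and the median log2 fold change was 0.20. Ehd4, an ATPase of endosomal recycling (120089175 to 120154606, minus strand), was at 4.87, 8.37 and 7.49 CPM in WT and 19.4, 24.1 and 23.3 CPM in the knockout. The lowest knockout library was above the highest WT library, and the mean rose 3.23-fold (log2 fold change 1.69, SE 0.22). Tmem87a, a Golgi membrane protein gene (120355312 to 120404113, minus strand), was at 2.92, 3.15 and 5.11 CPM in WT and 22.6, 17.7 and 14.5 CPM in the knockout, from 3.73 ± 1.20 to 18.3 ± 4.1 CPM (SD, n = 3 each). Its rise of 2.29 on the log2 scale was the larger of these. Bloc1s6, which encodes a subunit of the BLOC-1 complex of lysosome-related organelles (122738503 to 122749475, plus strand), was at 14.2, 19.4 and 16.3 CPM and 36.2, 37.4 and 34.6 CPM. The knockout values of Bloc1s6 were tightly grouped, at 36.1 ± 1.4 CPM against 16.6 ± 2.6 CPM in WT. Leaving out any 1 of the 6 libraries ended the call of Bloc1s6, and every such omission except that of IL1a -/- replicate 1 ended the call of Ehd4. The call of Tmem87a was lost without WT replicate 1 or WT replicate 2.

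The HOPS tethering complex, which joins late endosomes to lysosomes, has subunits in the window that lay on opposite sides of WT. Vps39, the neighbour of Tmem87a, was at 7.86, 5.22 and 6.43 CPM in WT and 11.3, 19.0 and 17.7 CPM in the knockout and was not called. Vps18 was at 63.2, 54.5 and 58.5 CPM in WT and 52.5, 38.3 and 51.3 CPM in the knockout, a separation of 0.806-fold without a call. Vps16, another core subunit, overlapped between the genotypes.

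The run of 7 members from Vps39 to Stard9, among which lies Snap23, a called gene that the rule leaves out, held 6 that lay above WT in all knockout libraries, 3 of them called. The exception was Ganc, a glucosidase gene that overlaps Tmem87a on the other strand, at 1.57, 1.38 and 1.03 CPM in WT and 1.10, 1.67 and 1.18 CPM in the knockout. Within the run lie Haus2, a subunit of the augmin complex that branches spindle microtubules, and Lrrc57, which lie on opposite strands and start 137 bases apart, each gene model beginning inside the other. Their shared start region is printed because both genes were higher in the knockout. The window is that of Haus2 in RefSeq (GRCm38.p6, chr2:120609132-120609431, plus strand), and capitals mark the 166 bases that also fall in the promoter window of Lrrc57.
Haus2: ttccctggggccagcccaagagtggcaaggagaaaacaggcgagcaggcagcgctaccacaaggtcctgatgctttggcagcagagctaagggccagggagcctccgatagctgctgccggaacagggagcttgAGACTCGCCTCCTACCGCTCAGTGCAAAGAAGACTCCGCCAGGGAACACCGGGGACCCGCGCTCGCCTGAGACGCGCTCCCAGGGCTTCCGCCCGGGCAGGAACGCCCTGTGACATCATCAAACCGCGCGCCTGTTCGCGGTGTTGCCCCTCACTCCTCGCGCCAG
The window has a GC content of 65.3% and 23 CpG dinucleotides. Medians were 60.3% and 21 over the promoter windows of the members, and 52.7% and 7 over all 32851 RefSeq promoter windows.

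Haus2 (120609383 to 120621560, plus strand) had 124, 127 and 102 counts in WT and 1059, 858 and 695 in the knockout, or 4.64, 4.09 and 3.28 CPM and 33.3, 26.5 and 30.4 CPM. Every knockout library was far above every WT library, and the log2 fold change was 2.91 (SE 0.20). Lrrc57 (120604238 to 120609520, minus strand) was at 10.9, 10.4 and 16.9 CPM in WT and 29.3, 34.5 and 30.1 CPM in the knockout. Its groups also separated, by a smaller 2.46-fold, and it was not called. The gene models of this pair overlap, so reads in the overlap are absent from both counts. With the strand columns added up, which count such reads for both genes, the folds were 7.65 for Haus2 and 2.61 for Lrrc57.

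Stard9, a kinesin gene that acts at centrosomes in dividing cells (120629121 to 120731895, plus strand), had 21, 24 and 37 counts in WT and 235, 276 and 202 in the knockout. The level rose 8.99-fold, from 0.916 ± 0.237 to 8.24 ± 0.75 CPM (SD, n = 3 each), and the groups lay far apart although both were low. The calls of Haus2 and Stard9 held in all 6 fits that left out a library. Of the 11 members in the cell division and genome maintenance group, 2 rose (Haus2 and Stard9), 1 fell (Ckap2l, beside Il1a) and 7 overlapped between the genotypes, with a median log2 fold change of -0.02. The eleventh, Anapc1, a scaffold subunit of the anaphase-promoting complex, was at 3.85, 4.12 and 3.15 CPM in WT and 2.67, 0.709 and 1.53 CPM in the knockout and was not called. Markers of dividing cells summed to 10.6 to 12.8 CPM in WT and 12.04 to 16.2 CPM in the knockout, nearly all of it Mki67.

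**Figure D3:**
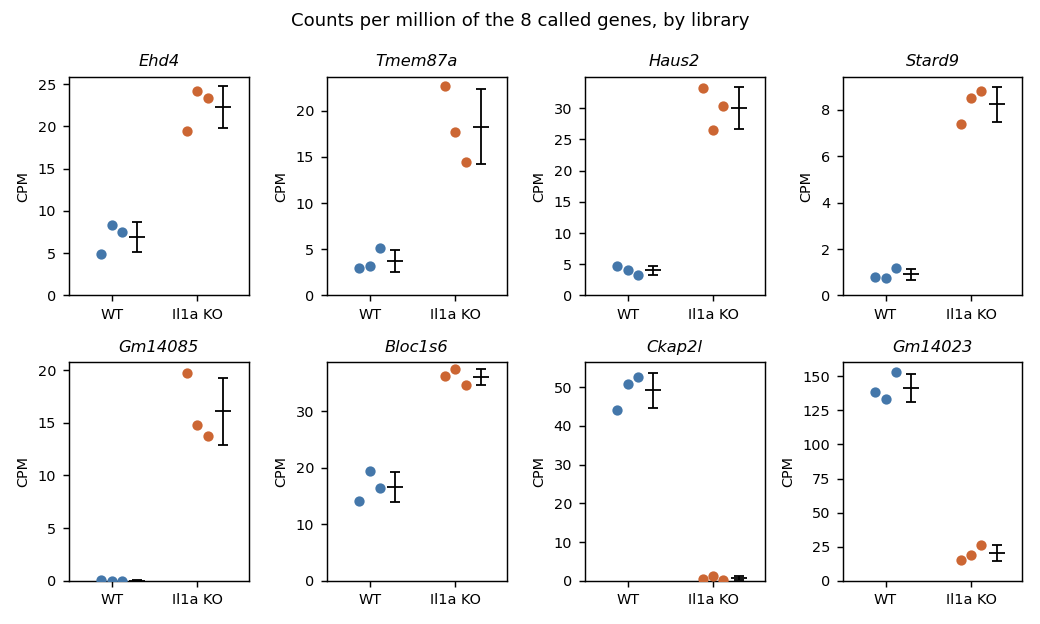
CPM of the 8 called members in each library (points, WT blue and IL1a -/- orange), with mean and SD beside them (n = 3 each). In every panel the genotypes are apart, with Haus2 going from 3.28 to 4.64 CPM in WT to 26.5 to 33.3 CPM in the knockout and Ckap2l from 44.0 to 52.6 CPM to at most 1.26 CPM.

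Genes of transcription and chromatin were 9, with 0 called, 3 above WT, 2 below and 4 overlapping. Zfp106, which encodes an RNA-binding zinc finger protein, was at 104, 74.6 and 108 CPM in WT and 201, 218 and 158 CPM in the knockout. It was the most abundant member to separate upwards, at 2.02-fold, and it overlaps another gene model, Gm26899, on the other strand. Rtf1, a subunit of the Paf1 elongation complex, was at 9.28, 9.82 and 9.94 CPM and 15.1, 16.003 and 18.7 CPM. The WT libraries of Rtf1 agreed within 0.35 CPM (SD), and the fold was 1.71. Ino80, the ATPase of a nucleosome remodelling complex, was at 2.32, 2.38 and 1.93 CPM and 2.48, 3.08 and 4.28 CPM, barely apart. On the other side of WT, Bahd1, a gene of heterochromatin formation, was at 11.0, 9.14 and 10.7 CPM and 8.20, 6.04 and 8.04 CPM. Ctdspl2, a phosphatase gene, was at 4.45, 4.83 and 4.79 CPM in WT and 3.14, 3.73 and 3.19 CPM in the knockout.

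In the signalling group of 13 members, 0 were called, 2 lay above WT, 2 below and 9 overlapped. Mapkbp1, which encodes a scaffold of the JNK pathway, was at 3.63, 1.71 and 4.70 CPM in WT and 0.975, 0.278 and 0.568 CPM in the knockout. Its log2 fold change of -2.45 was the largest decrease outside the immediate neighbours of Il1a, at a level where WT libraries themselves ranged widely. Chp1, a calcium-binding protein gene, was at 212, 244 and 203 CPM and 192, 152 and 164 CPM, a small separation at high abundance. Spred1, an inhibitor of Ras signalling and among the outermost members on the left, was at 8.35, 9.95 and 10.5 CPM and 14.2, 12.1 and 13.3 CPM. Ubr1, the one ubiquitin-pathway member of 7 to separate, encodes an N-degron ubiquitin ligase and was at 15.3, 9.63 and 14.2 CPM in WT and 16.9, 29.8 and 16.7 CPM in the knockout. The separation of Ubr1 is narrow in 2 of the 3 knockout libraries, and its mean rests largely on replicate 2.

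Metabolic and mitochondrial genes numbered 17, with 0 called, 3 above WT, 1 below and 13 overlapping, and a median log2 fold change of 0.04. Gatm, the enzyme that makes the creatine precursor guanidinoacetate, was at 0.187, 0.386 and 0.900 CPM in WT and 3.08, 6.66 and 3.89 CPM in the knockout. Gatm and Gm14085 were the 2 members that stayed under 1 CPM in every WT library and passed it in every knockout library, and 0 members did the reverse. Ndufaf1, an assembly factor of respiratory complex I, was at 1.24, 0.741 and 1.38 CPM and 2.77, 1.94 and 3.41 CPM. Pank2, a mitochondrial kinase of coenzyme A synthesis on the far side of Il1a, was at 28.1, 29.4 and 26.9 CPM and 25.8, 24.3 and 21.6 CPM, a difference of 0.85-fold.

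**Figure D4:**
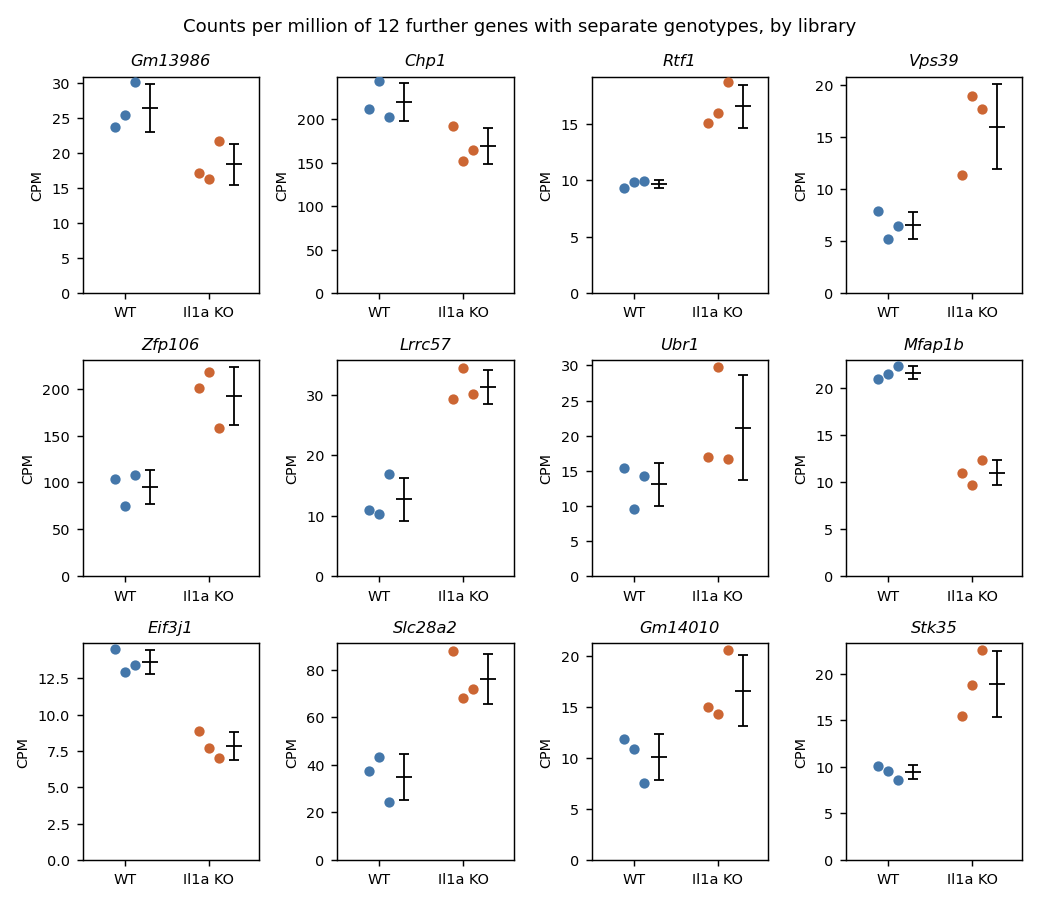
CPM of 12 further members in each library (points, WT blue and knockout orange), with mean and SD (n = 3 each), none of them called. Each panel shows separate genotypes, from a clear gap in Mfap1b (21.0 to 22.4 against 9.74 to 12.4 CPM) to a narrow one in Ubr1 (at most 15.3 against at least 16.7 CPM).

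The stretch from 10 to 6 Mb before Il1a also holds genes with near-identical copies, whose counts depend on how reads were shared out. Gm14085, named Slc28a2b in RefSeq, lies next to Slc28a2, a sodium-coupled nucleoside transporter gene, and their coding sequences match at 95.1% over 1976 aligned bases. The stretch of exon 6 that differs most is printed to show that reads from it can be assigned. Both are coding bases 457 to 516 of the plus strand, from GENCODE M21 transcripts (GRCm38, chr2:122449767-122449826 and chr2:122514371-122514430), and capitals mark the 13 bases that differ.
Slc28a2: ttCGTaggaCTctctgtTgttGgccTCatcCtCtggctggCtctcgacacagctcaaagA
Gm14085: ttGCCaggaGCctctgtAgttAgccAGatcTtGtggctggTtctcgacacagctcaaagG
The longest run that both coding sequences share is 192 bases, and reads inside it cannot be assigned to one gene.

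Gm14085 (122484941 to 122528040, plus strand) had 1, 0 and 0 counts in WT and 628, 480 and 315 in the knockout, at the limit of detection in one genotype and plainly present in the other. The ratio of counts was 1451, with a 95% exact interval from 260 to 57364 that covers counting error only. Slc28a2 (122426477 to 122461137, plus strand) was at 37.4, 43.3 and 24.3 CPM in WT and 87.9, 68.1 and 71.8 CPM in the knockout, separated and uncalled. The pair added up to 37.4, 43.3 and 24.3 CPM in WT and 108, 82.9 and 85.6 CPM in the knockout. That sum had to be higher, since each gene was higher alone, and it does not show how reads were shared. The other transporter genes, Trpm7, Slc20a1 and Slc23a2, overlapped between the genotypes.

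Mfap1a and Mfap1b, a pair of spliceosome component genes, lay on opposite sides of WT. Their coding sequences are identical over all 1317 bases, and over 2328 bases of transcript they differ at 16, so most reads from one can come from the other. Mfap1b was at 21.0, 21.5 and 22.4 CPM in WT and 11.0, 9.74 and 12.4 CPM in the knockout. Mfap1a was at 8.23, 8.21 and 10.7 CPM in WT and 12.2, 13.5 and 11.7 CPM in the knockout. Neither was called, and in each the genotypes were separate. Added together they were at 29.2, 29.7 and 33.1 CPM in WT and 23.2, 23.2 and 24.1 CPM in the knockout, so the sum still differed (30.7 ± 2.1 against 23.5 ± 0.5 CPM, SD, n = 3 each) by less than Mfap1b alone.

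In 2 further pairs the copy lies on another chromosome and the sums overlapped between the genotypes. Eif3j1, a subunit gene of translation initiation factor eIF3, was at 14.5, 12.9 and 13.4 CPM in WT and 8.90, 7.71 and 6.99 CPM in the knockout. Its copy Eif3j2 on chromosome 18, 99.4% identical, rose, from 0.674, 1.22 and 1.19 CPM to 6.82, 6.04 and 5.50 CPM. The pair summed to 15.2, 14.1 and 14.6 CPM in WT and 15.7, 13.8 and 12.5 CPM in the knockout. Pcna, the sliding clamp of DNA replication, was at 19.3, 15.3 and 13.1 CPM and 13.4, 14.5 and 10.8 CPM. Its processed pseudogene Pcna-ps2 on chromosome 19, 99.2% identical over 781 bases, was at 0.150, 0.129 and 0.161 CPM in WT and 3.05, 2.84 and 2.40 CPM in the knockout. The sums overlapped, as Pcna did alone. Some other pairs with a copy on another chromosome had separate sums. Chp1 and Gm20056 (chromosome 16) summed to 213, 246 and 204 CPM in WT and 193, 153 and 165 CPM in the knockout. Spcs2-ps and Spcs2 (chromosome 7) summed to 94.3, 133 and 111 CPM in WT and 88.4, 70.9 and 79.5 CPM in the knockout. The sums of H3f3c with each of its copies overlapped. Eif3j2 and Pcna-ps2 are the 2 called genes that lie off chromosome 2, and each is the copy of a member. In all, 39 members have a copy (identity of 90% or above along 50% or more of the shorter transcript), among them 3 of the 8 called and 12 of the 39 separated members, many by a short shared element only.

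**Figure D5:**
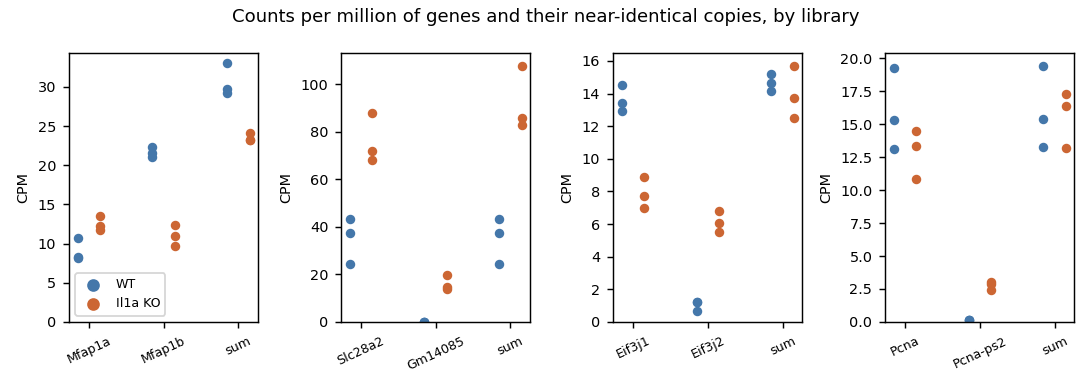
CPM per library for 4 members, their near-identical copies and the sum of each pair (points, WT blue and knockout orange). Sums overlap between the genotypes for Eif3j1 with Eif3j2 and for Pcna with Pcna-ps2, and stay apart for Mfap1a with Mfap1b and for Slc28a2 with Gm14085.

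The RNA processing and translation group had 0 of 11 called, 1 above WT, 4 below and a median log2 fold change of -0.26. Of the 5 that separated, 3 are the genes with copies described above (Mfap1a, Mfap1b and Eif3j1). The other 2 were Lcmt2, a tRNA-modifying enzyme gene, at 2.77, 2.96 and 3.12 CPM in WT and 1.45, 1.63 and 1.22 CPM in the knockout, and Snrpb, a core protein of spliceosomal snRNPs. Snrpb was at 36.7, 40.5 and 41.1 CPM and 34.2, 34.9 and 30.8 CPM, close together though separate. The difference between these 2 groups of genes was not tested.

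Directly beside Il1a, 2 members fell. Ckap2l encodes a mitotic spindle protein and follows Il1a on the minus strand (129268210 to 129297212). Gm14023 is transcribed from the other strand into the Il1a gene (129297370 to 129307826). The 2 start 158 bases apart and run away from each other, and their start region is printed because the counts of both were lower in the knockout. Whether this region has a part in the lower counts was not tested. The window is that of Ckap2l in RefSeq (GRCm38.p6, chr2:129297163-129297462, minus strand), with the 257 bases that also fall in the window of Gm14023 in capitals.
Ckap2l: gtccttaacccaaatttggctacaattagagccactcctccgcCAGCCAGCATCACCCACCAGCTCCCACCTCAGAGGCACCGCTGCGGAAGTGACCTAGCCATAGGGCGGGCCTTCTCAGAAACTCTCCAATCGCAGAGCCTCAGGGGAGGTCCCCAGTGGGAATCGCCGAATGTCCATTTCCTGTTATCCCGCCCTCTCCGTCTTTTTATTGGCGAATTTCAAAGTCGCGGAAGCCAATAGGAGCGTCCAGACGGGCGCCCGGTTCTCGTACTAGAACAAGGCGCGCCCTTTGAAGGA
This window has a GC content of 57.3% and 19 CpG dinucleotides.

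Ckap2l had 1175, 1578 and 1635 counts in WT and 16, 41 and 6 in the knockout, equal to 44.0, 50.8 and 52.6 CPM and 0.503, 1.26 and 0.262 CPM. The fall was 72.6-fold (log2 fold change -6.11, SE 0.38), the largest decrease among the members, and it was called in 14 of 14 fits. Gm14023 was at 139, 133 and 153 CPM in WT and 15.2, 19.1 and 26.5 CPM in the knockout. The WT libraries were again far above the knockout, and the log2 fold change was -2.81 (SE 0.20). Because Gm14023 and Il1a overlap and the library kit does not mark strand, reads in the overlap cannot be assigned to one gene. The unstranded counts of Gm14023, 14307 over all libraries, leave out reads in exons of both. On these counts, the 6 fits without a library put its log2 fold change between -3.05 and -2.65. Strand sums count such reads for both genes, which gave Gm14023 188460 counts and a value of -6.13. Whether reads of Il1a remain in the unstranded counts of Gm14023 was not tested. On the 5′ side of Il1a, Gm25703, an snRNA gene, was at 2.96, 2.06 and 3.41 CPM in WT and 1.01, 0.709 and 1.48 CPM in the knockout, without a call. Il1bos, antisense to Il1b, was at 339, 344 and 459 CPM and 284, 367 and 381 CPM, with the genotypes overlapping.

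Further out within 2 Mb of Il1a, separated members went both ways and 0 were called. Stk35, a kinase gene on the right, was at 10.03, 9.56 and 8.55 CPM in WT and 15.4, 18.7 and 22.5 CPM in the knockout. Pced1a was at 1.53, 3.28 and 4.25 CPM and 5.16, 9.37 and 5.55 CPM. Gm14010, a lincRNA on the left, was at 11.9, 10.8 and 7.49 CPM and 14.96, 14.3 and 20.6 CPM. In each of these 3 the knockout libraries were all higher, by 1.65- to 2.21-fold. Acoxl, an acyl-CoA oxidase-like gene, was higher as well, at 0.711, 1.09 and 1.38 CPM and 1.54, 1.63 and 3.76 CPM, in reach of few counts. Below WT were Anapc1, Snrpb and Pank2, given above, and the Gm4430 entry that overlaps Slc20a1. That entry was at 1.83, 2.35 and 1.58 CPM in WT and 0.534, 1.26 and 1.35 CPM in the knockout.

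Of the 10 members with a mean above 100 CPM, Chp1 and Zfp106 separated, as given above, and the other 8 overlapped between the genotypes. Smox, spermine oxidase, was at 2600, 3153 and 3563 CPM in WT and 3029, 3334 and 3706 CPM in the knockout, and it lies 2.2 Mb after Il1a. Dusp2, a phosphatase that inactivates MAP kinases, was at 495, 503 and 551 CPM and 446, 583 and 551 CPM. Gpcpd1, a glycerophosphocholine phosphodiesterase gene, was at 259, 220 and 203 CPM and 228, 255 and 235 CPM. For these 3 genes, well expressed in the cells, the mean differed by 1.02- to 1.08-fold. Dstn, the actin-severing protein destrin, was at 136, 185 and 177 CPM and 179, 162 and 164 CPM, near the right edge of the window. Of 23 members with a mean of at least 50 CPM, 20 had a log2 fold change within 0.5 of zero.

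Some members had large average differences with overlapping genotypes. Mal, a membrane raft protein gene of epithelia and other cells, was at 0.112, 1.19 and 0.933 CPM in WT and 0.252, 8.23 and 1.48 CPM in the knockout, a mean difference of 4.46-fold set by IL1a -/- replicate 2. Fermt1, an integrin activator of epithelial cells, was at 0.299, 4.28 and 1.51 CPM and 0.314, 1.36 and 0.611 CPM. The 8 corneal epithelial markers together were at 73.6, 209 and 164 CPM in WT and 84.7, 160.0 and 95.6 CPM in the knockout. WT replicate 2 was the highest WT library for Mal, Fermt1 and this sum, while the markers Krt15 and Aldh3a1 were highest in WT replicate 3. Flrt3, an adhesion protein gene, was at 0.973, 4.80 and 2.57 CPM and 4.40, 8.66 and 9.74 CPM, where 2 knockout libraries exceeded every WT library and the remaining one did not. The part of epithelial RNA in these values was not tested.

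At the left edge of the window the outermost member, the lincRNA Gm29340, was at 3.44, 2.03 and 2.28 CPM in WT and 2.64, 3.42 and 3.28 CPM in the knockout, overlapping. Just outside on the left, Aqr, a spliceosomal helicase gene, was at 6.25, 5.60 and 3.99 CPM in WT and 3.17, 3.98 and 5.02 CPM in the knockout. Snx5, a sorting nexin gene and the last member on the right, was at 5.61, 4.93 and 3.41 CPM in WT and 4.43, 5.46 and 4.72 CPM in the knockout, overlapping. Just outside on the right, Sec23b, a COPII coat gene, was at 111, 155 and 155 CPM and 86.6, 95.3 and 107 CPM, separated at 0.688-fold and not called. At the level threshold, the members nearest to it were Chchd5 and Ckmt1, at 1.03 and 1.13 CPM (before TMM scaling) in the third of their ranked libraries, and the nearest genes left out were Kif16b and Usp50, at 0.981 and 0.862 CPM. Beyond the window, steps of 10 Mb along chromosome 2 had median absolute log2 fold changes of 0.18 to 0.43 and 0 calls in each. The share of separated genes in these steps ranged from 2.86% to 23.1%. It was highest from 70 to 60 Mb (23.1%) and from 130 to 120 Mb (22.2%) before Il1a, near the 23.8% of the members up to 2 Mb after Il1a.

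Overlap with other gene models touched 60 of the 125 members, 51 of them on the opposite strand. Reads that fall in exons of 2 models are left out of the unstranded counts, so the values of some of these members cover only part of the gene. Overlap was judged by whole gene spans. In Trpm7 and Usp8, which overlap models on the other strand, the strand sum equalled the unstranded count. In 8 members the sum of the strand columns was more than 1.5 times the unstranded count. Ganc is one of them: its fold was 0.99 in the unstranded count and 1.67 in the strand sum, which includes reads of Tmem87a. With strand sums in place of unstranded counts, 9 members were called and 39 separated.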

How the data were processed

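Libraries came from a SMART-Seq v4 low-input kit, per the labels' protocols, and such libraries carry no strand mark. Tools listed in the submitters' processing notes are FastQC 0.11.9, Trimmomatic 0.39 and STAR 2.7.8a, with GRCm38 and mm10 as builds. The authors deposited whole-number counts per gene and library, not normalized, in an unstranded column, used here, and 2 strand columns. The annotation release is not given in the sources used here, and GENCODE M21 gave names and positions for 54809 of 54838 genes.

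Genes passing edgeR's default filter by group (11924) were scaled by TMM, and knockout was compared with wild type by the robust quasi-likelihood test of edgeR 4.0.16 in R 4.3.3, with Benjamini-Hochberg adjustment over all of them. CPM use TMM-scaled library sizes. The procedure was tested on simulated data. The members, the role lists and the rule for naming genes were chosen with earlier results of these data known. The rule named called members, up to 20 further members by p among those averaging 5 CPM or more, the 15 most abundant, those within 1 Mb of Il1a, up to 3 per role list and those with a copy. Other members in the text were chosen after their values were seen. Copies were found with blastn 2.17.0. Promoters come from RefSeq (GRCm38.p6), which had an entry for 110 of 125 members. Alternatives were other scalings and filters, a replicate block, DESeq2 1.42.0, limma-voom (limma 3.58.1), strand sums, each library left out, and other windows and level thresholds.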

Additional observations from a re-analysis of the deposited data

How the results depend on the processing

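The count of called members was 8 and that over all genes 12. Without a filter on low counts they were 19 and 185, with a filter at 5 CPM in 3 libraries 13 and 21, and with DESeq2 18 and 69; the cause was not tested. Other scalings, limma-voom and strand sums gave 8 or 9 members. Leaving out each library in turn gave 5 to 8 called members, 7 to 24 genes in all, 47 to 56 members with separate genotypes (18.7% to 26.6% of all tested genes in the same fits, against 11.6% with all libraries) and median absolute log2 fold changes of 0.25 to 0.39. The lowest count of members came without WT replicate 1 or 2, and the 24 genes came without IL1a -/- replicate 1. A replicate block gave 10 members and 20 genes in all. Same-numbered libraries deviated together with correlations of 0.14, 0.057 and 0.0034. WT replicates 1 and 2 correlated best with their own number, and WT replicate 3 with another. With 3 libraries per genotype, these values cannot decide whether the numbers pair the samples. A window of 5 Mb on each side held 67 members, with 2 called and 12 separate (17.9%, against 11.6% of all tested genes). The stretches from 14 to 10 Mb and from 10 to 6 Mb before Il1a fall outside it. Windows of 10 and 20 Mb each held the 8 calls, with 34 of 109 members (31.2%) and 42 of 151 (27.8%) separate. Over the 14 fits, Ckap2l, Gm14023, Haus2, Stard9 and Gm14085 were called in 14, Tmem87a in 12, Ehd4 in 9 and Bloc1s6 in 8. Among uncalled members, Lrrc57 was called in 8, Vps39 in 4 and Zfp106, Mfap1b and Slc28a2 in 3 each. Gatm was called without a filter on low counts, with a replicate block and with DESeq2, and some others in fewer fits. Depth is lowest for the 48 members that average under 5 CPM, and how small a difference could be called for them was not measured.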
